A study of Mus musculus with 33 samples.

Results

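Tumour-associated macrophages (TAM) were profiled by RNA-seq after mice with an orthotopic pancreatic tumour had received stereotactic body radiotherapy (SBRT) followed by microspheres loaded with interleukin 12 (IL-12), and were compared with macrophages of unirradiated tumours. The comparison used 4 of the 33 libraries of the series, 2 from the combination group and 2 from the unirradiated group, and all 53735 gene names of the authors' deposited table for that contrast. KCKO tumour cells, a mouse pancreatic ductal adenocarcinoma line, were injected into the pancreatic tail of C57BL/6 mice, 100000 cells in 50 µL. Each of 4 fractions delivered 6 Gy between day 6 and day 9 after implantation, aimed with titanium markers placed beside the tumour, and on day 10 the combination group received 2 mg of beads with 0.5 µg of IL-12 in 20 µL into the tumour. The protocol also names empty microspheres as a control, but the labels do not say whether the unirradiated or the SBRT groups received them, and no day of harvest is given. The other macrophage groups, SBRT alone (2 libraries) and IL-12 microspheres alone (3 libraries), enter only where the combination is set beside them. Macrophages were sorted as CD45+CD11b+F4/80+ cells negative for Ly6G with intermediate Ly6C. Nothing in the labels says that each library is a separate mouse, so the p-values measure only the spread between libraries, which may be technical. The authors' fit may hold all macrophage groups, so that spread may not be that of the 4 compared libraries alone.

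Ionising radiation breaks DNA, and the break response stabilises the transcription factor p53, whose targets halt the cell cycle and can start cell death. IL-12 acts mainly on T and natural killer cells and drives them to release interferon gamma, which macrophages read through a surface receptor and its JAK kinases. Interferon gamma is known to shift macrophages towards antimicrobial GTPases, antigen presentation and inducible nitric oxide synthase, and away from the mannose receptor and related lectins.

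In the macrophages of the combination group 7 of 16 p53 targets of arrest rose, led by Phlda3 (9.90-fold). So did 8 of 21 p53 targets of cell death and damage handling. In turn 20 of 33 genes of DNA replication and 15 of 39 genes of mitosis fell. Interferon-inducible GTPases rose, 16 of the 19 tested, as did Nos2 (2.47-fold), the inducible nitric oxide synthase, and Cd274 (1.77-fold), which encodes the checkpoint ligand PD-L1. Of 22 genes of alternative activation 8 fell, among them the lectins Mgl2 (2.59-fold lower) and Mrc1 (1.71-fold lower), the mannose receptor. An adjusted p below 0.05 in the authors' deposited table was reached by 725 of the 17224 genes that had one, 4.21%. Of these, 386 were higher (2.24%) and 339 lower (1.97%) in the combination group. A deposited log2 fold change of at least 1 in size was reached by 75 of the higher and 81 of the lower genes. The median log2 fold change over all genes tested was 0.00.

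Throughout, the level of a gene is the authors' mean normalised count over all 9 macrophage libraries, a fold change is their log2 fold change of the named treatment over the unirradiated group, and the value after ± is the fold change divided by the Wald statistic, which approximates the standard error. The tables hold no value per library, so the spread within a group, its overlap with the other group and the depth of each library cannot be given. The 3 macrophage tables share their unirradiated libraries, so values of the combination, SBRT and IL-12 are set side by side and their likeness is not counted as a result. A difference between 2 treatments was tested from their Wald statistics, with an adjusted p over all genes and a 95% interval. This test counts the variance of the shared controls in both treatments, and where an adjusted p with the control variance removed changes a call, it is given beside it. Of the 17224 genes tested, 0.238% differed from SBRT and 1.14% from IL-12 with the control variance removed. Some lists are also described by members at an unadjusted p below 0.05. Over all genes tested that share was 6.85% higher and 7.31% lower after the combination, 7.05% in either direction after IL-12, and 1.47% and 2.33% for the differences from SBRT and IL-12.

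**Figure D1:**
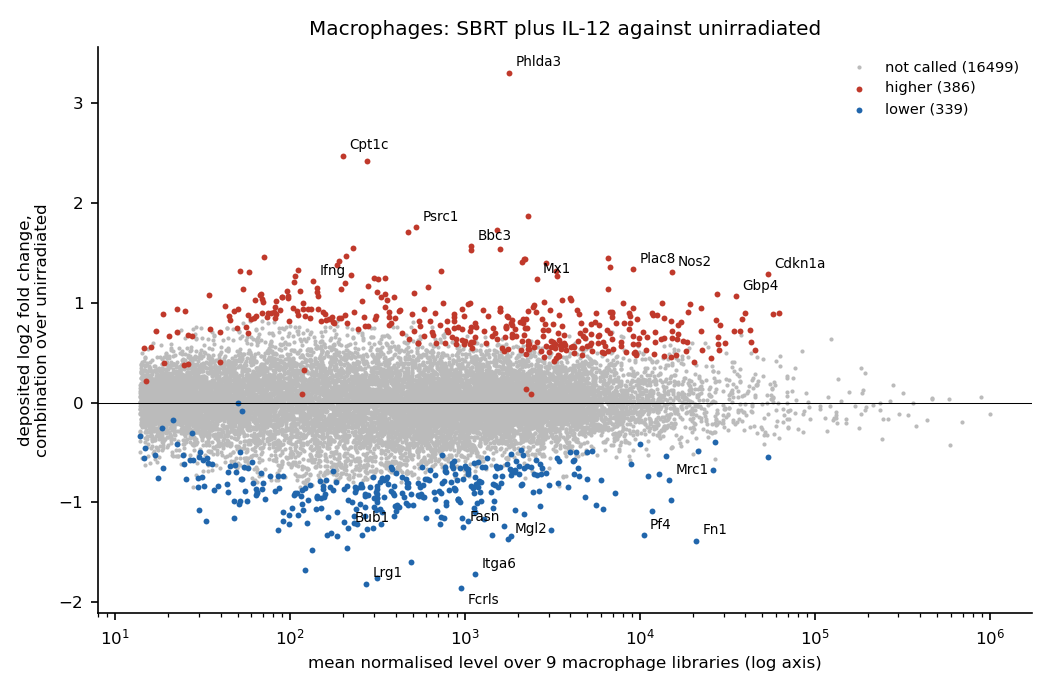
Deposited log2 fold change of the combination over the unirradiated group (vertical axis) against the mean normalised level (horizontal axis, log scale) for 17224 tested genes, with 386 called higher in red and 339 called lower in blue. Phlda3 stands highest at 3.31 and Fcrls lowest at -1.86.

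The sorted cells carried macrophage transcripts. Per kilobase of exon, the mean level of Adgre1, which encodes F4/80, was 10753 in the macrophage tables, 5084 in the monocyte table and 94.5 in the CD8 T cell table, and that of the complement subunit C1qa was 109554, 21286 and 759. Some other macrophage markers did not separate macrophages from monocytes. Csf1r had 10825 per kilobase in macrophages and 10768 in monocytes, and Fcgr1 had 5866 and 5867. Lyz2 was lower in macrophages, at 451173 beside 539540. Ly6c2, a monocyte gene, had 873 per kilobase in macrophages and 18080 in monocytes. The populations were normalised separately, so these levels are only roughly comparable. Among 12 macrophage markers 1, Mrc1, was called after the combination, and the median of the list was -0.14.

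The list named p53 targets of arrest, whose members do not all act on the cell cycle, held the leading gene of the table. Of 16 tested, 7 rose and 1 fell, with a median log2 fold change of 0.47. Phlda3 (chr1:135766119-135769136, GRCm38), which encodes an inhibitor of the kinase Akt, had a log2 fold change of 3.31 ± 0.19 (adjusted p = 2.69e-65) in the authors' deposited table. It was 3.49 after SBRT alone and -0.24 after IL-12 alone. The difference between the combination and IL-12 was 3.46 (95% interval 2.94 to 3.98, adjusted p = 3.45e-34), and that between the combination and SBRT was -0.18 (-0.70 to 0.34, adjusted p = 1). Phlda3 was thus high in both irradiated groups and not in the group given IL-12 alone.

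Cdkn1a (chr17:29090976-29100727), which encodes the cyclin-dependent kinase inhibitor p21, was among the most abundant of the called genes, with a level of 53555. Its deposited log2 fold change was 1.29 ± 0.16 (adjusted p = 5.19e-13), beside 1.41 after SBRT and 0.05 after IL-12. Ccng1, which encodes cyclin G1, stood at 1.35 ± 0.19 (adjusted p = 6.60e-10), and Trp53inp1, a p53-induced nuclear protein gene, at 1.54 ± 0.24 (adjusted p = 1.24e-07). All 3 exceeded IL-12 alone, with adjusted p-values for the difference of 0.000161, 0.00499 and 0.0136. Zmat3, which encodes a p53-induced RNA-binding zinc finger protein, rose by 1.71 ± 0.21 (adjusted p = 2.84e-13), and Mdm2, the ubiquitin ligase that degrades p53, by 0.88 ± 0.21 (adjusted p = 0.00247). For Zmat3 and Mdm2 the difference from IL-12 did not pass (adjusted p = 0.492 and 1), but did with the control variance removed (1.37e-05 and 0.00113).

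The member that fell was Sesn1, which encodes a stress-induced inhibitor of mTORC1 signalling. Its deposited log2 fold change was -0.90 ± 0.15 (adjusted p = 1.86e-06), against -0.20 after SBRT and -0.37 after IL-12, neither called. Its paralog Sesn2 went the other way, with 0.73 ± 0.18 (adjusted p = 0.00302) after the combination and 0.92 after SBRT. The difference of Sesn1 from SBRT was -0.70 (-1.13 to -0.28), with an unadjusted p of 0.00118 and an adjusted p of 1, or 0.0131 with the control variance removed.

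Among 21 tested p53 targets of cell death and damage handling, 8 rose and none fell in the deposited table, with a median of 0.21. Bbc3, which encodes the BH3-only protein PUMA, rose by 1.57 ± 0.18 (adjusted p = 4.54e-14), and Bax, the pore-forming partner of such proteins at the mitochondrion, by 0.90 ± 0.18 (adjusted p = 7.35e-05). Psrc1, which encodes a microtubule-binding protein, rose by 1.76 ± 0.25 (adjusted p = 2.62e-09). The remaining 5 were Dcxr (0.95), Polk (0.89), Aen (0.87), Fas (0.59) and Eda2r (0.39), which encode a carbonyl reductase, a translesion polymerase, a nuclease and a pair of death receptors of the tumour necrosis factor receptor family. Bbc3, Psrc1 and Dcxr exceeded IL-12 alone (adjusted p of the difference 0.000996, 6.09e-08 and 4.89e-06). Bax missed that threshold, with a difference of 0.88 (0.39 to 1.37, adjusted p = 0.432, or 4.64e-05 with the control variance removed). After SBRT alone 9 members of this list were called higher. After IL-12 alone 0 were called by DESeq2 (4 at an unadjusted p below 0.05, counted in either direction), with a median of -0.10.

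For 2 of these genes the promoter is printed because each holds the p53 decamer, the 10-letter consensus to which a pair of p53 subunits binds. The windows are the 250 bases before a RefSeq transcription start in GRCm38.p6, given 5′ to 3′ on the strand of the gene, with each match in capitals. That of Cdkn1a lies at chr17:29090729-29090978 on the plus strand and that of Ccng1 at chr11:40755287-40755536 on the minus strand.
Cdkn1a: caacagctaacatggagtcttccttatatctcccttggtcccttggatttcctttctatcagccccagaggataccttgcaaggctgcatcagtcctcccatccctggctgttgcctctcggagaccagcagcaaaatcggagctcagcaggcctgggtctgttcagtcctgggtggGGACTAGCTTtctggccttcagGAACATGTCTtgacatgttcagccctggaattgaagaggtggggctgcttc
Ccng1: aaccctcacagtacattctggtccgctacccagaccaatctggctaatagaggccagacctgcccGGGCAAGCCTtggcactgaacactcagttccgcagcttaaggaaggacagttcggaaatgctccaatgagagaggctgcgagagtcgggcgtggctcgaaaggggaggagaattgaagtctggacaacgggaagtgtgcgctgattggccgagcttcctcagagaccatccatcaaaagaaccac
The decamer was found on either strand in 7 of 18 windows of the arrest list (38.9%) and in 4 of 25 windows of the death list (16.0%). Over all 12080 windows of tested genes it was found in 5.89%, over windows of genes called higher in 7.45% and over those called lower in 8.28%. Lists of other kinds held it too, with 3 of 12 windows of interferon-inducible GTPases (25%) and 5 of 35 windows of mitosis genes (14.3%). A match is a stretch of letters and not a measured binding site.

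Several of the highest genes outside these lists were called after SBRT alone as well. Cpt1c, which encodes the brain-type carnitine palmitoyltransferase, rose by 2.48 ± 0.27 (adjusted p = 6.61e-17), with 2.50 after SBRT and -0.51 after IL-12. Ephx1, the microsomal epoxide hydrolase, rose by 1.53 ± 0.24 (adjusted p = 7.36e-08), with 1.84 after SBRT and -0.68 after IL-12. The differences from IL-12 were 2.80 (2.06 to 3.54) for Cpt1c and 2.18 (1.52 to 2.85) for Ephx1, both past the threshold. Glipr2, a Golgi-associated protein gene (1.40), Gria3, a glutamate receptor subunit gene (1.46), and Hmcn2, which encodes hemicentin 2 (1.38), also rose. Their differences from IL-12 did not pass, except with the control variance removed (adjusted p = 0.000103, 5.14e-05 and 0.0193). Plekhg4, which belongs to a family of guanine nucleotide exchange factors, rose by 1.47 ± 0.27 (adjusted p = 1.02e-05), but its values after SBRT (0.45) and after IL-12 (0.49) were not called.

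Genes of DNA replication made up one of the larger groups that fell. Of 33 tested, 20 fell and none rose, and 32 had a negative log2 fold change, with a median of -0.78 in the deposited table. All 6 subunits of the MCM2-7 replicative helicase fell, from -0.81 ± 0.23 for Mcm2 (adjusted p = 0.0167) to -1.34 ± 0.22 for Mcm5 (adjusted p = 3.76e-07). Mcm10, which loads onto the helicase at firing origins, stood at -1.27, and Uhrf1, which couples replication to DNA methylation, at -1.18. The enzymes of nucleotide supply Tk1 (-1.0), Tyms (-1.08) and Rrm2 (-1.03) also fell. So did the S phase regulators E2f1 (-0.61), Ccne1 (-0.64), Ccne2 (-0.92), Cdc6 (-0.90) and Cdt1 (-0.66). The median of the same list was -0.73 after SBRT, with 15 members called lower. After IL-12 it was -0.31, with 0 called by DESeq2 (10 at an unadjusted p below 0.05, counted in either direction). No member differed between the combination and a single treatment after adjustment, and at an unadjusted p below 0.05 the count was 0 against SBRT and 8 against IL-12. With the control variance removed 0 differed from SBRT and 4 from IL-12.

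All 39 tested genes of mitosis had a negative log2 fold change, and 15 of them passed the test, with a median of -0.73. Foxm1 (chr6:128362967-128376146), the transcription factor of G2 and M phase genes, fell by 1.32 on the log2 scale (± 0.26, adjusted p = 5.08e-05), beside -0.71 after SBRT, which was not called. Bub1, a kinase of the spindle checkpoint, fell by 1.26 (± 0.26, adjusted p = 0.000128), beside -1.09 after SBRT and -0.10 after IL-12. Ccna2 (-1.14), Ccnb2 (-0.84) and Cdk1 (-0.77), which encode cyclins A2 and B2 and their kinase, fell with the spindle and division genes Tpx2 (-1.22), Anln (-1.14) and Kif23 (-0.96). Mki67, the gene of the proliferation antigen Ki-67, stood at -0.28 ± 0.25 (adjusted p = 0.745) and was not called. Kntc1 (-1.46), Spag5 (-1.33) and Shcbp1 (-1.34), which encode a kinetochore protein, a spindle protein and an Shc-binding protein of dividing cells, were outside the lists and among the 15 lowest named genes. After SBRT 19 mitosis genes were called lower, with a median of -0.81. After IL-12 0 were called by DESeq2 (9 at an unadjusted p below 0.05, counted in either direction), with a median of -0.33. Over 35 DNA repair genes tested the median was -0.28.

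Promoters of 2 mitosis genes that fell are shown for the cell cycle homology region (CHR), the letters TTTGAA, through which such genes are known to be repressed outside division. That of Ube2c, the ubiquitin-conjugating enzyme of the anaphase-promoting complex (-1.06 ± 0.26, adjusted p = 0.00272), lies at chr2:164769679-164769928 on the plus strand. That of Cdk1 lies at chr10:69352913-69353162 on the minus strand. Matches on either strand are in capitals.
Ube2c: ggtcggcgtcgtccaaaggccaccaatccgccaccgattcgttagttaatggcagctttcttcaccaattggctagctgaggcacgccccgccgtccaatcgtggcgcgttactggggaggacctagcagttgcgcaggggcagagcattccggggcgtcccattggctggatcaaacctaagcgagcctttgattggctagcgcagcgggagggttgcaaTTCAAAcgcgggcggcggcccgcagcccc
Cdk1: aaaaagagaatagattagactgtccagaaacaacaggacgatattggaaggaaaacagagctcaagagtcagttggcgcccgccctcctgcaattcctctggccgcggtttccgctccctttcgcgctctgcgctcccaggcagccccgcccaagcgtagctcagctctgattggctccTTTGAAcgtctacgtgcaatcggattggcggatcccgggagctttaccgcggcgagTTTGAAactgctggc
The CHR was found in 14 of 35 windows of the mitosis list (40.0%), in 10.8% of all windows, in 13.8% of windows of genes called lower and in 14.5% of those called higher. It was also found in 5 of 12 windows of the interferon-inducible GTPase list (41.7%), of which no member was called lower. The E2F letters TTTCCCGC were found in 0 of the 35 mitosis windows, in 2 of 33 windows of the replication list (6.06%) and in 1.66% of all windows.

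**Figure D2:**
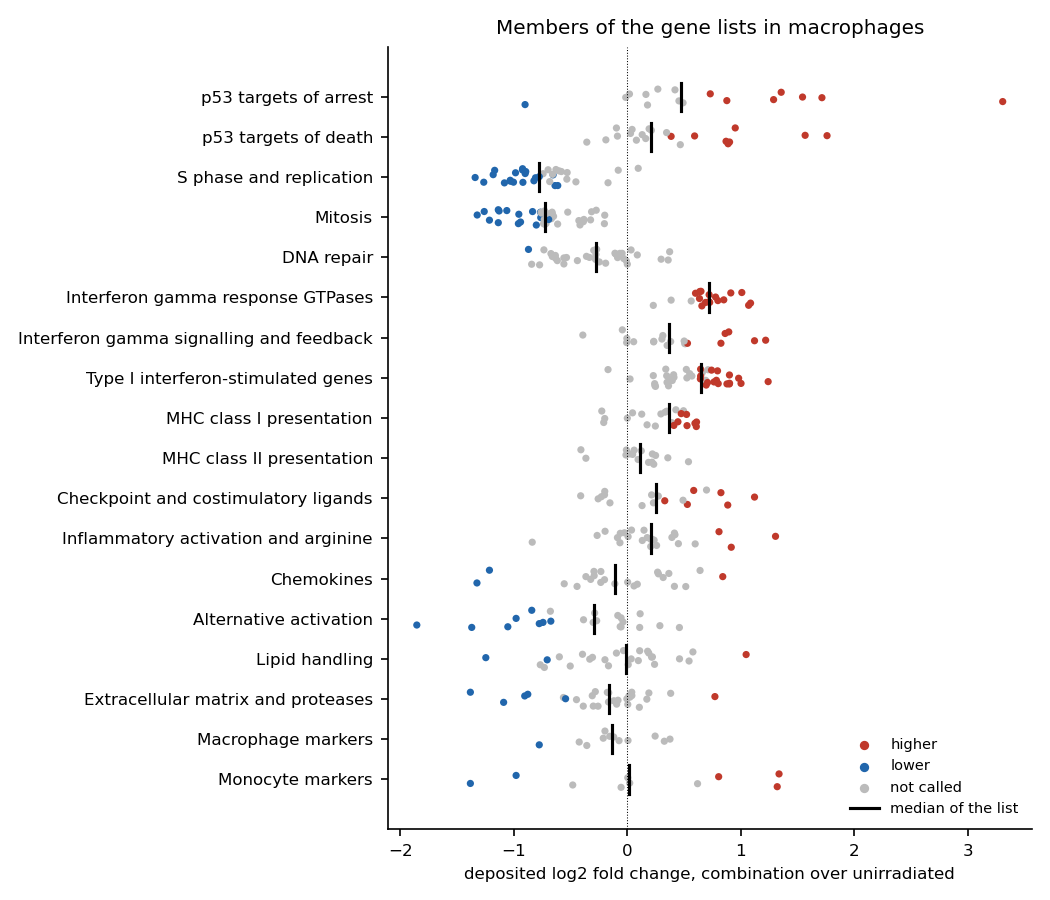
Deposited log2 fold change of each tested member (points) of 18 gene lists after the combination, with red for called higher, blue for called lower, grey for not called and a black bar for the median of the list. The GTPase list lies wholly to the right of 0 with a median of 0.72 and the mitosis list wholly to the left with a median of -0.73.

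Interferon-inducible GTPases of the GBP and IRG families, which attack the vacuoles of intracellular microbes, rose together. Of 19 tested, 16 rose, and all 19 had a positive log2 fold change, from 0.23 to 1.09, with a median of 0.72. Gbp2b rose by 1.09 ± 0.22 (adjusted p = 8.46e-05) and Gbp4 (chr5:105115767-105139586) by 1.07 ± 0.19 (adjusted p = 7.33e-06). Gbp11 stood at 1.01, Gbp5 at 0.91 and Gbp6 at 0.85. Among the IRG members Tgtp1 rose by 0.78 ± 0.18 (adjusted p = 0.00102), Igtp by 0.65, Irgm1 by 0.64 and Ifi47 by 0.64. Exons of Gbp4 overlap those of Gbp8 and Gbp9 on the same strand, and Tgtp1 and Tgtp2 are near-identical copies, so reads of these genes may be shared in ways the counting does not separate. The median after IL-12 alone was 0.73, with 14 members called higher, and after SBRT alone 0.50, with 3 called. No GTPase gene differed between the combination and a single treatment after adjustment, and at an unadjusted p below 0.05 the count was 1 against SBRT and 0 against IL-12. For Gbp2b the difference was 0.39 (-0.20 to 0.98) from SBRT and -0.06 (-0.65 to 0.53) from IL-12, so differences of up to about these bounds cannot be told from none.

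Promoters of Gbp2b (chr3:142594597-142594846, plus strand) and Tgtp1 (chr11:48992247-48992496, minus strand) are shown because they hold the letters of the interferon-stimulated response element (ISRE, searched as GAAA, any 2 letters and GAAA again) or of the gamma-activated site (GAS, TTCNNNGAA). Matches on either strand are in capitals. The first has an ISRE, and the second has a GAS followed by an ISRE.
Gbp2b: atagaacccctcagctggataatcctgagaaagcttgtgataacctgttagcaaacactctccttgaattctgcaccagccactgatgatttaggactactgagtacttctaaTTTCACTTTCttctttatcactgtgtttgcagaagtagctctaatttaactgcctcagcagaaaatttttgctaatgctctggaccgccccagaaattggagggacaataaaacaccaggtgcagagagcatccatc
Tgtp1: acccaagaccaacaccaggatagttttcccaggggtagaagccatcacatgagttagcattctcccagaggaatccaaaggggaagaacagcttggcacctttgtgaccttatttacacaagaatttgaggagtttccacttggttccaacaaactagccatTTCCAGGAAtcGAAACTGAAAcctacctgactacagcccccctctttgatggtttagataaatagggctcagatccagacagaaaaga
The ISRE was found in 10 of 12 windows of the GTPase list (83.3%) and in 13 of 34 windows of type I interferon-stimulated genes (38.2%). It was found in 10.6% of windows of genes called higher, in 2.45% of those called lower and in 2.84% of all windows. The GAS was found in 6 of the 12 GTPase windows (50.0%), in 7.06% of windows of genes called higher, in 4.6% of those called lower and in 6.03% of all. Overlapping matches to different motifs are each counted.

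Of 39 type I interferon-stimulated genes tested, 17 rose and none fell, and 38 had a positive log2 fold change, with a median of 0.65. Mx1, an antiviral dynamin-like GTPase, rose by 1.24 ± 0.18 (adjusted p = 9.12e-09), with 1.01 after SBRT and 0.88 after IL-12. Zbp1, a sensor of left-handed nucleic acids, rose by 0.90 ± 0.14 (adjusted p = 2.53e-07), with 0.66 after SBRT and 0.87 after IL-12. Mx1 and Zbp1 were thus called in all 3 tables. Samhd1, a nucleotide hydrolase that restricts viruses (0.90), Ifit3 (0.98), Ifit2 (0.90), which bind viral RNA, and Irf7, a transcription factor of the interferon response (0.88), also rose. Stat2 and Usp18, a transducer of the type I receptor and its feedback inhibitor, rose by 0.65 and 0.80. Ifit3 and Ifit3b are close copies. After SBRT 6 members were called higher and after IL-12 20, with medians of 0.45 and 0.63.

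In the pathway of interferon gamma itself, 6 of 20 tested genes rose and none fell, with a median of 0.37. Socs1, the feedback inhibitor of JAK kinases, rose by 0.89 ± 0.19 (adjusted p = 0.000204), with 0.63 after each single treatment. Batf2, an interferon-induced transcription factor gene, rose by 0.86, and Irf8, a regulator of the monocyte lineage, by 0.53. Irf1, an interferon-induced transcription factor, stood at 0.51 (adjusted p = 0.14) and was not called.

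Transcripts of the cytokine itself were also higher. Ifng (chr10:118441046-118445892) had a level of 135 and a deposited log2 fold change of 1.22 ± 0.30 (adjusted p = 0.00307) after the combination, with -0.23 after SBRT and -0.21 after IL-12. The difference was 1.52 (0.69 to 2.35) from SBRT and 1.41 (0.58 to 2.23) from IL-12. Neither passed the adjustment over all genes (adjusted p = 1 and 0.671), although both passed where the variance of the shared controls was removed (0.00251 and 0.000249). Where each table kept its own error, neither difference passed (adjusted p = 0.496 and 0.755). Markers of cells that make interferon gamma were measured beside it. None of 13 T cell markers was called by DESeq2 and 1 had an unadjusted p below 0.05 (median 0.11, against -0.39 after SBRT and -0.42 after IL-12), with levels from 52.9 to 318 and a summed level of 2414. Of 7 natural killer cell markers 1 was called, Klrk1 (0.93 ± 0.20, adjusted p = 0.00033), which encodes the receptor NKG2D and was also higher after IL-12 (1.21). Gzmb stood at 0.39 (adjusted p = 0.59) and Nkg7 at 0.34 (adjusted p = 0.57), while Gzma (-0.25), Eomes (-0.26) and Klrd1 (-0.06) were negative. The median of these 7 markers was 0.125, against -0.28 after SBRT and -0.34 after IL-12, with 4 positive and 3 negative log2 fold changes after the combination. The part of T and natural killer cells in the Ifng value was not tested. In bulk RNA, fewer cells of a type and less RNA per cell cannot be told apart.

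Of 13 tested genes of IL-12 and IL-18 signalling, 3 rose. Il18bp, the decoy that binds IL-18, rose by 1.0 ± 0.18 (adjusted p = 4.55e-06), Il27, a cytokine subunit of the IL-12 family, by 0.86 ± 0.17 (adjusted p = 6.95e-05), and Il12rb1, the IL-12 receptor subunit shared with the IL-23 receptor, by 0.80 ± 0.16 (adjusted p = 0.000125). After IL-12 alone they stood at 0.88, 0.88 and 0.78, all called, and after SBRT at 0.53, 0.41 and 0.38, none called. Il12rb2, the other receptor subunit, had a level of 62.0 and stood at 0.46 (adjusted p = 0.458). Exons of Il27 overlap those of Apobr on the other strand, which was also higher (0.58), and the library kit does not keep strand.

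**Figure D3:**
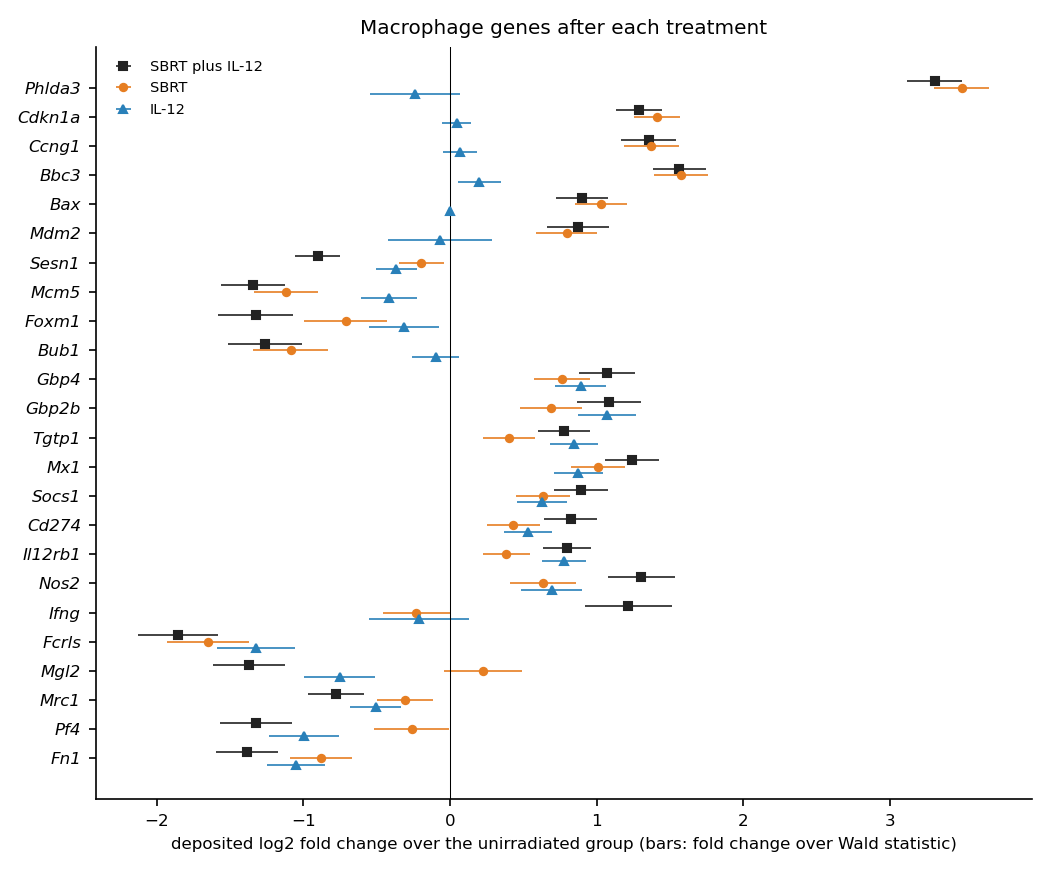
Deposited log2 fold change over the unirradiated group for 24 genes after the combination (black squares), SBRT (orange circles) and IL-12 (blue triangles), with bars of 1 fold change over statistic to each side, and no bar where fold change and statistic differed in sign. Phlda3 stands at 3.31, 3.49 and -0.24 and Gbp4 at 1.07, 0.76 and 0.89, in that order, and all 3 tables share their unirradiated libraries.

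Genes of antigen presentation that were called belonged to class I. Of 22 class I genes 8 rose and none fell (median 0.37), while of 16 class II genes none was called by the deposited DESeq2 test and 1 had an unadjusted p below 0.05 (median 0.11). Tap2, a subunit of the peptide transporter, rose by 0.61 ± 0.14 (adjusted p = 0.00134). The immunoproteasome subunits Psmb9 (0.47) and Psmb8 (0.41) and the proteasome activators Psme1 (0.52) and Psme2 (0.45) rose with H2-T23 (0.61), H2-Q4 (0.60) and H2-Q6 (0.53), which belong to a family of near copies. H2-Ab1, a class II chain, stood at 0.05 ± 0.15 (adjusted p = 0.971), and Ciita, the activator of class II genes, at 0.23 ± 0.19 (adjusted p = 0.689). All 5 of H2-T23, Psme1, Psme2, H2-Q4 and Psmb9 lost their call when the Wald statistics were scaled to their own spread. Psmb8 and H2-Q6 had deposited adjusted p-values no smaller than that of Psme2, so their calls did not hold either. Tap2 kept its call in that setting (adjusted p = 0.0187).

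Of 18 checkpoint and costimulatory ligand genes tested, 6 rose and none fell, with a median of 0.25. Cd274 (chr19:29367455-29388095) rose by 0.82 ± 0.18 (adjusted p = 0.000581), beside 0.43 after SBRT and 0.53 after IL-12, neither of which was called. Pdcd1lg2, which encodes the second PD-1 ligand, rose by 0.88 ± 0.23 (adjusted p = 0.00583), beside 0.95 after SBRT and 0.34 after IL-12. Both ligands of PD-1 were thus higher after the combination. Ido1, the tryptophan-degrading enzyme, rose by 1.12 ± 0.27 (adjusted p = 0.00248) at a level of 114. Pirb, an inhibitory receptor for class I molecules (0.53), and the costimulatory ligands Cd86 (0.58) and Tnfsf4 (0.33) had adjusted p-values between 0.01 and 0.05 and lost their call when the statistics were scaled to their own spread.

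Nos2 (chr11:78920787-78960254) led the list of inflammatory activation, of which 3 of 25 tested genes rose and none fell. Its deposited log2 fold change was 1.31 ± 0.23 (adjusted p = 4.95e-06), beside 0.64 after SBRT (adjusted p = 0.139) and 0.69 after IL-12 (adjusted p = 0.0759). The call for Nos2 was made only in the table of the combination, but its difference from SBRT was 0.65 (0.02 to 1.27, adjusted p = 1) and from IL-12 0.53 (-0.10 to 1.15, adjusted p = 1), so the treatments were not shown to differ. Il15ra, which presents IL-15 to lymphocytes (0.92), and Cd38, an ectoenzyme of inflammatory macrophages (0.81), were the other 2 that rose. Arg1, the arginase that competes with nitric oxide synthase for arginine, stood at 0.13 ± 0.18 (adjusted p = 0.872). The classical cytokines were not called either, with Tnf at 0.15 (adjusted p = 0.896) and Il1b at 0.24 (adjusted p = 0.67).

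Of 23 chemokine genes 1 was called higher and 2 lower, beside 2.24% and 1.97% over all genes, and no change of the list is read from so few. Ccl5, which attracts T cells, rose by 0.84 ± 0.21 (adjusted p = 0.00482). Pf4, the chemokine CXCL4, fell by 1.33 on the log2 scale (± 0.25, adjusted p = 1.81e-05) at a level of 10463, and Cxcl13, a B cell attractant, by 1.22 (± 0.31, adjusted p = 0.00456). Pf4 was also called after IL-12 (-1.0) and not after SBRT (-0.26), and its difference from SBRT was -1.08 (-1.76 to -0.40, adjusted p = 1, or 0.0215 with the control variance removed). The interferon-induced attractants of T cells were not called, with Cxcl9 at 0.27 ± 0.20 (adjusted p = 0.638) and Cxcl10 at 0.37 ± 0.22 (adjusted p = 0.494). Of 10 chemokine receptors 1 fell, Cx3cr1, the fractalkine receptor of resident myeloid cells (-1.07 ± 0.24, adjusted p = 0.00117), with -1.15 after SBRT and -0.31 after IL-12.

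Genes of alternative activation fell in 8 of 22 cases and rose in none, with a median of -0.30. Fcrls (chr3:87250758-87263738), a scavenger-receptor-like gene of resident macrophages, was the lowest named gene of the table at -1.86 ± 0.27 (adjusted p = 7.48e-09), with -1.65 after SBRT and -1.33 after IL-12, all called. Mgl2 (chr11:70130329-70137550), which encodes a galactose-binding lectin, stood at -1.37 ± 0.24 (adjusted p = 5.70e-06), with 0.23 after SBRT and -0.75 after IL-12, neither called. Its difference from SBRT was -1.58 (-2.25 to -0.91) with an adjusted p of 0.0717. It passed with the control variance removed (adjusted p = 1.37e-06) and where each table kept its own error (0.041).

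Mrc1 fell by 0.78 on the log2 scale (± 0.19, adjusted p = 0.0029), and its single-treatment values of -0.31 and -0.51 were not called. Stab1, which encodes the scavenger receptor stabilin 1, fell by 0.68 (± 0.18, adjusted p = 0.0097), with 0.06 after SBRT and -0.44 after IL-12. The remaining members that fell were Myc (-1.05), a growth-promoting transcription factor, F13a1 (-0.98), coagulation factor XIII subunit A, the lipid-sensing receptor Pparg (-0.84) and the lectin Cd209f (-0.74). The list median was -0.08 after SBRT and -0.23 after IL-12, with 3 members called lower in each. Of 27 scavenger receptors and lectins 2 fell, Clec4b1 (-1.0) and the fatty acid transporter Cd36 (-0.89), and of 19 complement genes 1 fell, Itgax, which encodes CD11c (-0.62). Counts this small are not read as a change of these lists, since 1.97% of all genes were called lower.

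**Figure D4:**
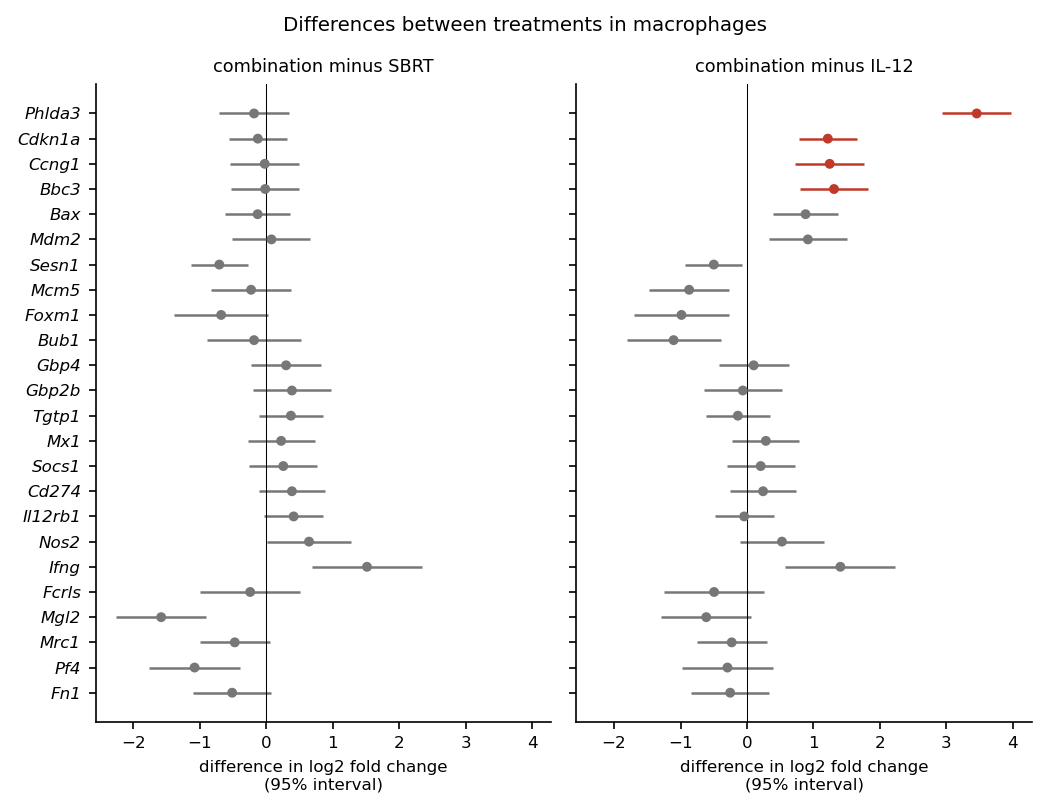
Difference in log2 fold change between the combination and SBRT (left) and between the combination and IL-12 (right) for 24 genes, with 95% intervals as horizontal lines, red where the difference passed an adjusted p of 0.05 and grey elsewhere. On the right Phlda3, Cdkn1a, Ccng1 and Bbc3 are red, from 1.22 for Cdkn1a to 3.46 for Phlda3, and none of the 24 passes on the left.

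Matrix and lipid genes changed in small numbers, beside 2.24% of all genes called higher and 1.97% called lower. No change of the lipid list is read from so few. Fn1, fibronectin, fell by 1.38 on the log2 scale (± 0.21, adjusted p = 4.77e-08) at a level of 20993, and was called lower after SBRT (-0.88) and after IL-12 (-1.05) too. Of 29 matrix and protease genes 5 fell, Fn1 with Timp2 (-0.91), a metalloproteinase inhibitor, Col1a1 (-1.09), a collagen chain, Sparc (-0.88), a collagen-binding protein, and Ctsd (-0.55), a lysosomal protease. The only one that rose was Mmp2, a gelatinase, at 0.77 ± 0.22 (adjusted p = 0.0167). Mmp2 was higher after SBRT (0.80) and lower after IL-12 (-0.87), both called, and its difference between the combination and IL-12 was 1.66 (1.05 to 2.27, adjusted p = 0.000316). Beside the matrix genes, 3 of 9 tested fibroblast markers fell, Acta2 (-1.09), Col1a1 and Dcn (-0.90), with a list median of -0.36. Over all 10 listed markers the levels ran from 6.46, for the untested Pdgfra, to 805, with a summed level of 2561. The part of fibroblasts was not tested. Fasn, the fatty acid synthase, fell by 1.25 (± 0.20, adjusted p = 4.74e-07), and Scd2, a fatty acid desaturase, rose by 1.05 ± 0.22 (adjusted p = 0.000282), among 3 called of 26 lipid genes.

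Of the 15 lowest named genes, 7 more are described here. Itga6, integrin alpha 6, fell by 1.72 on the log2 scale (± 0.22, adjusted p = 2.98e-12), with -1.44 after SBRT and -0.57 after IL-12. Lrg1, a secreted leucine-rich glycoprotein gene, fell by 1.82 (± 0.27, adjusted p = 7.48e-09), and Prg4, which encodes lubricin, by 1.76 (± 0.25, adjusted p = 3.88e-09). S1pr1, the receptor for sphingosine 1-phosphate that guides lymphocyte exit (-1.68), Selp, P-selectin (-1.48), Sorbs3, an adhesion adaptor (-1.59), and Emp1, an epithelial membrane protein gene (-1.33), also fell. Of these 7 genes, 7 were called lower after SBRT, and Sorbs3 and Emp1 after IL-12.

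Monocyte markers split. Plac8 (1.34 ± 0.23, adjusted p = 2.42e-06) and Ms4a4c (0.80) rose, whereas Fn1 and F13a1 fell, among 10 tested, with a list median of 0.01. Plac8 was called higher after each single treatment as well. Ly6c2, whose protein was part of the sort, stood at 0.62 ± 0.24 (adjusted p = 0.146). The share of recently arrived monocytes in the gate was not measured.

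Energy metabolism and handling genes were largely not called. Of 26 genes of glycolysis and hypoxia 1 rose, Hk3, a hexokinase (0.73 ± 0.18, adjusted p = 0.00361), and of 6 Fc receptors 1 rose, Fcgr4 (0.59). Over all genes 2.24% were called higher, and no change of these lists is read from a count of 1. DESeq2 called none of 30 nuclear genes of oxidative phosphorylation (median 0.01) and none of 15 mitochondrially encoded genes (median -0.08), with 0 at an unadjusted p below 0.05 in both lists. It called none of 20 dissociation stress genes (median -0.08) and none of 18 differentiation regulators (median 0.01), each list with 1 higher and 3 lower at an unadjusted p below 0.05.

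Among markers of other cells, none was called by DESeq2 in the neutrophil (7 tested), dendritic cell (9), mast cell (2), epithelial (7), acinar (10) and erythroid (5) lists, with medians from -0.09 to 0.18 and an unadjusted p below 0.05 for 1 neutrophil and 1 dendritic cell marker and for 0 in the other lists. Of 7 B and plasma cell markers 6 had a negative log2 fold change, 4 were lower at an unadjusted p below 0.05 and 1 was called, Jchain (-0.53). The median of that list was -0.38 after the combination, -0.53 after SBRT and -0.01 after IL-12, and its summed level was 3894. Vwf rose (0.63) among 5 endothelial markers, beside 2.24% of all genes called higher, and no change of that list is read from it. In the lists where none fell, the number of members lower at an unadjusted p below 0.05 was 0 for the death targets, GTPases, type I genes and class I genes, and 1 each for interferon gamma signalling, checkpoint ligands and inflammatory activation. Where none rose, the number higher was 0 for replication and mitosis and 1 for alternative activation.

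Set beside the single treatments, the table of the combination held more called genes, 725 (4.21%) against 384 after SBRT (2.08%) and 178 after IL-12 (0.935%). After SBRT 172 genes were higher (0.933%) and 212 lower (1.15%), and after IL-12 124 were higher (0.651%) and 54 lower (0.284%). Of the 386 higher genes, 129 were also called in either direction after SBRT and 100 after IL-12, and 186 in neither table. Of the 339 lower genes these numbers were 107, 31 and 220. The direction was not matched in these counts, and Mmp2, higher after the combination, was called lower after IL-12. A call in 1 table and not in another does not show a difference, and the tests of the difference gave few. Between the combination and IL-12, 24 of 32375 genes differed (0.0741%), 22 of them higher after the combination (0.068%) and 2 lower (0.00618%). Between the combination and SBRT 1 gene differed (0.00309%), Vars2, the mitochondrial valine transfer RNA ligase. Vars2 stood at -1.05 (adjusted p = 0.000133) after the combination, 0.56 after SBRT and 0.25 after IL-12. Its difference from SBRT was -1.61 (adjusted p = 0.00331) and from IL-12 -1.31 (adjusted p = 0.0214), each with a standard error of the difference of 0.30. Beside Vars2, the gene lower than after IL-12 was Elavl3, which encodes a neuronal RNA-binding protein and was called higher after IL-12 (2.01) but not after the combination (-0.35, adjusted p = 0.243). The differences leave out the covariance that shared controls create, and with that variance removed 208 genes differed from IL-12 and 42 from SBRT.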

How the data were processed

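RNA of sorted cells was made into TruSeq RNA V2 libraries, which do not mark strand, and sequenced on a HiSeq 2500, per the labels' protocols. The submitters' processing notes name GRCm38, the aligner STAR 2.6.0c, the counter featureCounts of Subread, Salmon, Trimmomatic 0.36 and FastQC 0.11.8; the annotation is not given in the sources used here. The authors deposited 9 tables of DESeq2 comparisons, per the labels, and 3 of them, the macrophage tables, were used for the comparison and the single treatments. In each, per the file headers, the level is the mean normalised count over the libraries (a signal unit), the fold change is on a log2 scale, the Wald statistic is a score, and p-values and adjusted p-values are given. The model, its version and any shrinkage of the fold changes are not given in the sources used here. The level was identical in the 3 macrophage tables. The deposited p-values equalled the 2-sided normal p of the statistic. The fold change over the statistic fell from a median of 0.26 at levels of 30 to 300 to 0.06 at levels up to 1, so fold changes of weakly expressed genes appear shrunken and the ± value understates their error. The lowest level with an adjusted p was 13.9.

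A gene was called at a deposited adjusted p below 0.05, with its direction from the statistic. Treatments were compared by the difference of their Wald statistics over the square root of 2, a 2-sided normal test with Benjamini-Hochberg adjustment over 32375 genes, scaled to log2 by the median of the tables' fold change over statistic. The procedure was tested on simulated data. Of the lists, 24 held pathways, 2 RNA quality and 13 cell markers. Members and lists were chosen with earlier results of these data known. Named genes were the 15 highest and 15 lowest called fold changes at a level of at least 50, without predicted genes, pseudogenes and receptor segments, up to 6 members per list with the smallest adjusted p, and a fixed set; further members complete a count, and some members are not reported here. Genes named only by a sequenced clone (105 of the 725) are not described. Positions and exon lengths came from GENCODE M21, where 602 of the called names were found, and promoters from RefSeq (GRCm38.p6), where 205 of the higher, 253 of the lower and 9469 of the tested genes were found. Motifs were searched on both strands. No per-library value was used, so depth per library is unknown. Python 3.11.15, pandas 2.3.3 and SciPy 1.17.1 were used.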

Additional observations from a re-analysis of the deposited data

How the results depend on the processing

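The 725 called genes became 386 at an adjusted p below 0.01, 1031 at 0.1, 548 with the adjustment over all genes with a p, 711 at levels of at least 50, and 322 (180 higher, 142 lower) when the statistics, whose robust spread was 1.17, were scaled to that spread. Of 112 called named genes, 93 were called in each readjustment that gave a value; the adjustment over all genes ended 6 calls (Psme2, Cd86, Itgax, Ctsd and Vwf among them) and the scaling 19, among them these and Irf8, H2-T23, Psme1, H2-Q4, Psmb9, Pirb, Tnfsf4, Cd36, Fcgr4, Sparc, Mmp2, Jchain and Dcn, and at levels of at least 50 2 calls were gained, Exo1 (adjusted p = 0.0476) among them. Differences from SBRT numbered 1, and 42 (26 higher, 16 lower) with the control variance removed, 7 with each table's own error and 2 at levels of at least 50. Differences from IL-12 numbered 24 (91.7% higher), and 208 (60.6% higher) with the control variance removed, 27 with each table's own error (81.5% higher) and 26 at levels of at least 50. Of 78 alternative list medians 76 moved by less than the members' error; at levels of at least 50 the neutrophil median was 0.29 and the endothelial median 0.52. No paired analysis was possible because the deposited tables hold no value per library; for the same reason no replicate was left out in turn and no replicate block was fitted. With 2 libraries per group, absent calls do not show equal expression.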

Other observations

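Predicted genes were kept out of the named genes, and a pair of groups of them stood near the top of the table; they were chosen after their values were seen. On chromosome 9, 7 predicted genes between positions 3000282 and 3038313 (GRCm38) rose after the combination in the authors' deposited table, from 0.85 for Gm10719 to 1.55 for Gm10722 (adjusted p = 1.86e-06). Gm10718 (0.58) and Gm17535 (0.45) of the same stretch were not called. On chromosome 2, Gm10801 (98662237 to 98664083) rose by 2.42 (adjusted p = 2.21e-17) and Gm10800 (98666547 to 98667301) by 1.41 (adjusted p = 1.61e-11). After SBRT alone Gm10801 stood at 2.27, Gm10800 at 1.37 and Gm10722 at 1.76, and after IL-12 alone at -0.38, -0.31 and -0.52. The differences between the combination and IL-12 passed for all 3 (adjusted p = 6.55e-08, 4.05e-05 and 0.000362), but where each table kept its own error those of Gm10801 and Gm10800 did not (adjusted p = 1 for both), and that of Gm10722 did (0.00143). Neighbouring predicted genes of this kind can share reads, so they are not independent measurements.

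Several genes that differed from IL-12 fell outside the lists. Kank3, which encodes a protein of the actin cytoskeleton, rose by 0.99 (adjusted p = 0.000144), with 1.34 after SBRT and -0.39 after IL-12. Vldlr, the very low density lipoprotein receptor, rose by 0.82 (adjusted p = 0.0103), with 1.38 after SBRT. Nr1d1, the clock repressor REV-ERB alpha, rose by 0.76 (adjusted p = 0.00863), with 1.02 after SBRT and -0.51 after IL-12. Pvt1, a long non-coding RNA next to Myc, rose by 0.92 (adjusted p = 0.0021), whereas Myc itself fell by 1.05 on the log2 scale. Exoc4, a subunit of the exocyst, rose by 1.27 (adjusted p = 9.11e-11), with 1.34 after SBRT and 0.05 after IL-12. These 5 genes were chosen from the 24 that differed from IL-12 after their values were seen.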
